A study of Drosophila melanogaster with 6 samples.

Results

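The DIP, dpr, beat and side genes encode cell surface and secreted proteins of the immunoglobulin superfamily in the fruit fly, Drosophila melanogaster. Members were all protein-coding genes of the RefSeq Release 6 table whose symbol begins with DIP-, with dpr and a digit, with beat- or with side-, together with side itself. This gave 54 genes of 13911 protein-coding genes on the 6 chromosome arms: 11 DIP, 21 dpr, 14 beat and 8 side genes. Reads in peaks were examined in RNA from pooled heads of w1118cs flies, males and females together, kept on a standard diet, and all 6 libraries shared this genotype and treatment. An antibody against N6-methyladenosine (m6A), a methyl mark on adenosines of mRNA, was crosslinked with ultraviolet light to fragmented poly(A)-selected RNA in 3 CLIP libraries, and 3 input libraries served as the background. Each CLIP library and the input with its number gave 1 deposited peak list, so there were 3 lists, called lists 1, 2 and 3.

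DIP proteins bind dpr proteins across the gap between neurons, and a DIP can have several dpr partners. Side proteins are transmembrane ligands, and beat proteins are their secreted or membrane-anchored receptors. Both systems are known for matching neurites with their targets in the visual system and at neuromuscular junctions. In flies, mapped m6A lies mostly towards the 5′ ends of mRNAs.

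The 3 lists held 14329, 7232 and 6645 peaks built from 50 bp bins, and the lowest CLIP level in a list was 7, 25 and 7 reads per bin. CLIP reads were not scaled to library size, and library totals were not used here, so read levels are compared within a list only. The labels give heads as the tissue and neurons as the cell type, but whole heads also hold other cells. Of the neuronal marker genes that could be assessed, 5 of 6 had a peak in all 3 lists. The same was true of 3 of 3 glial, 4 of 4 photoreceptor, 4 of 4 muscle and 4 of 5 fat body markers, and of 0 of 3 germ line markers. How much of the members' signal came from each cell type was not tested, and a low level of modified RNA cannot be told apart from few cells that express the gene.

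A peak was counted for a gene when its midpoint lay in that span and in no other protein-coding span. By this measure the members held 96, 87 and 53 peaks, a mean of 78.7 ± 22.7 (SD, n = 3 lists). In all, 104, 88 and 53 peaks had their midpoint in a member's span, and 8, 1 and 0 of them also lay in another protein-coding gene. Of these 9 shared peaks, 7 lay in DIP-epsilon and CG42369, 1 in beat-IIIa and CG34106, and 1 in side-II and CG3491. The peaks of their own included 2, 1 and 1 in a long non-coding RNA gene, all of them in DIP-alpha. The gene beat-IIIa had no bin outside other coding spans and could not be assessed, which left 53 members among 12049 assessable genes.

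A peak was present in 41 members in list 1, 40 in list 2 and 27 in list 3. Among all assessable genes, 27.1% had a peak in list 1, 17.5% in list 2 and 16.6% in list 3. In all 3 lists a peak was present in 25 members, or 46.3% of the 54, while 13.5% of all assessable genes met this rule. The members are long genes, with a median span of 36.2 kb against 2.30 kb for all genes assessed, and long spans hold more bins. Among genes of 20 kb or more, 59.9% had a peak in all 3 lists, and 21 of the 35 assessable members of that length did so, or 60.0%. At this length the members' share lay at the background. Of the 18 shorter members, 4 (22.2%) had a peak in all 3 lists, namely dpr4, dpr7, dpr18 and side-VII. The share of all genes under 20 kb is not given here, and that of genes of any length was 13.5%. The closeness to the background thus refers to the long members only.

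**Figure D1:**
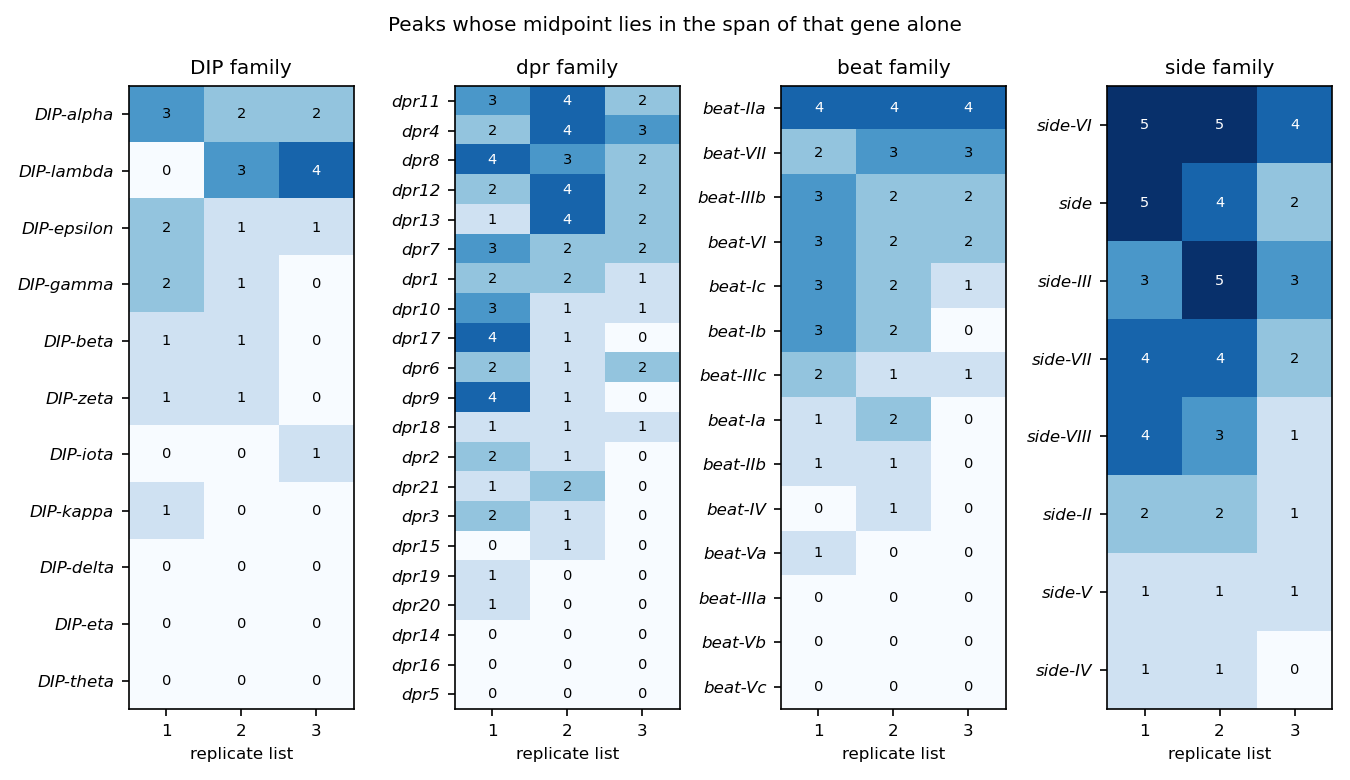
Number of peaks of each gene's own in each of the 3 replicate lists, by family, with genes ordered by their total. All 8 side genes had a peak in at least 1 list, while 3 DIP, 3 dpr and 3 beat genes had none, beat-IIIa among them because it has no bin of its own.

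The families differed in how many members recurred. Of the 11 DIP genes, 2 had a peak in all 3 lists: DIP-alpha, the receptor of dpr6 and dpr10, and DIP-epsilon. Another 4 were in 2 lists (DIP-beta, DIP-gamma, DIP-lambda and DIP-zeta), DIP-iota and DIP-kappa were in 1, and DIP-delta, DIP-eta and DIP-theta were in none. Of the 21 dpr genes, 10 were in all 3 lists: dpr1, first known for the response to salt taste, and dpr4, dpr6, dpr7, dpr8, dpr10, dpr11, dpr12, dpr13 and dpr18. The genes dpr2, dpr3, dpr9, dpr17 and dpr21 were in 2 lists, dpr15, dpr19 and dpr20 in 1, and dpr5, dpr14 and dpr16 in none. Among the beat genes, 6 of 14 were in all 3 lists: beat-Ic, beat-IIa, beat-IIIb, beat-IIIc, beat-VI and beat-VII. The gene beat-Ia, whose product lets motor axons leave their bundles, was in 2 lists together with beat-Ib and beat-IIb. A single list held beat-IV or beat-Va, and beat-Vb and beat-Vc had no peak. Of the 8 side genes, 7 were in all 3 lists, and the remaining one, side-IV, was in 2. The family medians of span length ran from 22.3 kb in dpr and 33.6 kb in DIP to 36.9 kb in beat and 58.5 kb in side. The side family, with the longest median span, also had the highest share of members in all 3 lists, 87.5%. The other families did not follow the order of length. The share was 47.6% in dpr, which had the shortest median, 42.9% in beat and 18.2% in DIP. The part of length in this order was not tested.

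List 3 was the one most often missing among members, with a peak in 27 of them against 40 in list 2. Among all assessable genes the shares in lists 3 and 2 were close, 16.6% and 17.5%. With the same number of peaks of lowest p-value kept in each list, 23 instead of 25 members had a peak in all 3. The reason for the members' lower number in list 3 was not tested. Of the 13 members in 2 lists, 12 had peaks in lists 1 and 2 and none in list 3, the shortest list. The exception was DIP-lambda, which had 0, 3 and 4 peaks. Its span of 379 kb is the longest of all members, and several of its peaks carried more input than CLIP reads. In list 3 its 4 peaks held 11, 12, 15 and 14 CLIP reads and, in the input, 3, 157, 1551 and 1019. The first of them, at chr2R:518251-518300, had 76 CLIP and 2 input reads in list 2 and lay on the strand opposite to the gene's other peaks. Of all peaks in exactly 1 protein-coding span, 42.5%, 15.8% and 53.0% had input above CLIP in lists 1, 2 and 3. Among the members' peaks, 3, 4 and 5 did so. As library depth was left aside, input above CLIP does not by itself show a lack of enrichment.

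Partners of a chosen part of the known binding pairs were set side by side. DIP-alpha, DIP-gamma and DIP-delta are the only DIP genes among these pairs, so DIP-epsilon is not covered. The share among all possible pairs of members is not given here. Of the 14 chosen pairs, 3 had both genes in all 3 lists: DIP-alpha with dpr6, DIP-alpha with dpr10, and beat-VI with side-II. Taken singly, 46.3% of the members were in all 3 lists, and 2 of these 3 pairs share DIP-alpha. Whether partners recur together more often than other members was not tested. For DIP-gamma, which has 2, 1 and 0 peaks, the partner dpr11 was in all 3 lists, dpr17 in 2, dpr15 in 1 and dpr16 in none. The pair DIP-delta and dpr12, which works in the mushroom body, had its dpr in 3 lists and its DIP in none. The ligand side was in all 3 lists and its receptor beat-Ia in 2. For side-IV, in 2 lists, the receptor beat-IIa was in 3 and beat-IIb in 2. The ligand side-VI held 5, 5 and 4 peaks, while its receptors beat-Va, beat-Vb and beat-Vc were in 1, 0 and 0 lists.

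The peaks of dpr, beat and side genes lay mostly at the beginning of the gene. Position was measured from the first edge, the edge of the span that is met first when reading along the strand of the peak, because the gene table used here gives neither strand nor exons. Whether a peak lies in a 5′ untranslated region or an exon could therefore not be assessed. Of the members' peaks, 70 of 96, 62 of 87 and 38 of 53 had their midpoint within 1 kb of the first edge, or 72.9%, 71.3% and 71.7%. The mean was 72.0% ± 0.86 (SD, n = 3 lists). In genes that are not members, the share was 30.7%, 36.2% and 37.6%, with a mean of 34.8% ± 3.6 (SD, n = 3 lists). The lowest share of the members was above the highest share of the other genes.

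The share, pooled over peaks, was also taken among long genes only, and the part of length was not tested. In members of 20 kb or more the share at the first edge was 69.2% ± 1.9 (SD, n = 3 lists), and in the other genes of that length it was 26.7% ± 3.4. A list of 49 other cell surface genes of neuronal wiring, such as Dscam1, CadN and Nrx-1, gave 34.2% ± 3.0 (SD, n = 3 lists), in the range of all other genes. This share is over pooled peaks, and 1 gene, Fas1, held 26 of 141, 24 of 115 and 19 of 88 of them. A share counted by gene is not given for this list. These other wiring genes recurred as often as long genes do, with 28 of 47 assessable genes in all 3 lists. The difference was not tested, since peaks within a gene are not independent and the members were chosen with results of these lists known.

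**Figure D2:**
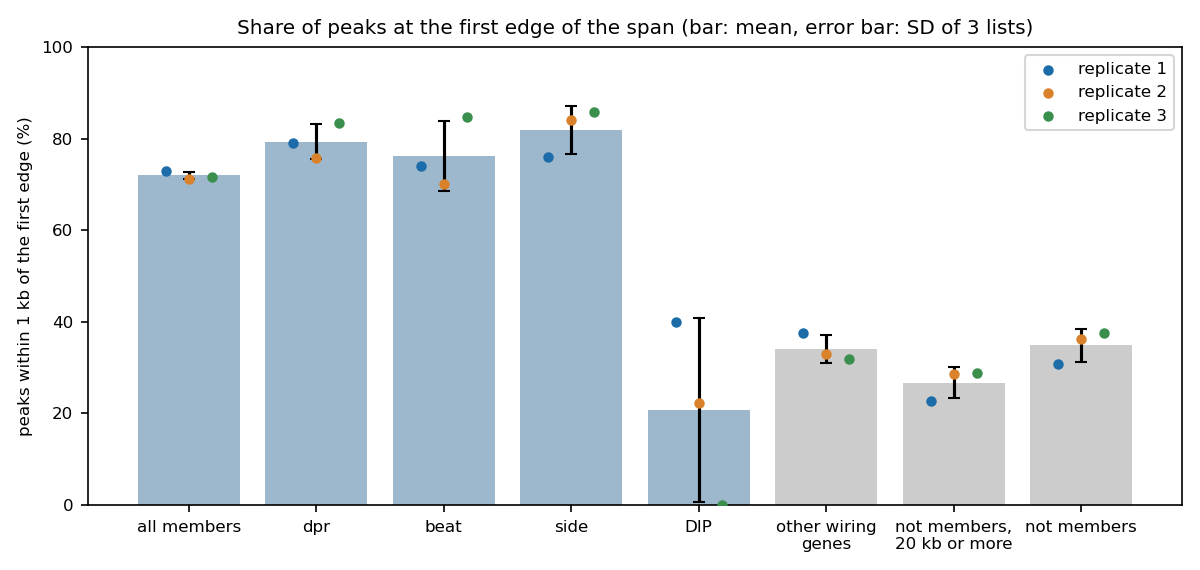
Percent of peaks whose midpoint lies within 1 kb of the first edge of the gene span, for all members, each family and other gene sets. Bars are means, error bars SD and points the 3 lists; the dpr, beat and side points lie between 70.0% and 85.7%, and those of the other gene sets between 22.8% and 37.6%.

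The far end of the members was almost empty of peaks. Within 1 kb of the last edge lay 0, 1 and 0 of the members' peaks, the single one being a peak of dpr12 in list 2 with 26 CLIP reads and 1 input read. In genes that are not members, 25.3% ± 2.7 (SD, n = 3 lists) of peaks lay there, and in those of 20 kb or more 5.27% ± 2.6. With the span cut into 3 equal parts, the members' peaks fell 84.5% ± 4.5 in the first, 11.4% ± 2.7 in the middle and 4.11% ± 1.8 in the last (SD, n = 3 lists). The other genes had 41.5% ± 4.4, 20.8% ± 0.64 and 37.7% ± 5.0. At 20 kb or more, the other genes had 51.0% ± 6.7, 16.7% ± 1.2 and 32.3% ± 7.9. Members of that length had 82.4% ± 4.1, 13.4% ± 2.8 and 4.23% ± 1.5. The other wiring genes had 61.1% ± 2.9, 15.1% ± 2.3 and 23.7% ± 4.2.

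The families did not share this pattern alike. The share of peaks within the first 1 kb was 79.3% ± 3.8 in dpr, 76.2% ± 7.6 in beat and 81.9% ± 5.2 in side genes, which overlap one another within their spread. In the DIP family it was 40.0%, 22.2% and 0%, from only 10, 9 and 8 peaks. At least 1 peak within the first 1 kb was found in 17 of 18 dpr, 10 of 11 beat and 7 of 8 side genes with a peak, and in 4 of 8 DIP genes. In DIP-gamma this was a peak of list 1 at 797 bp, on the strand opposite to its 2 other peaks. These counts by gene join the peaks of all lists, and the same count in other genes is not given here. Among other genes with a region covered by a peak in every list, 68.3% held such a region within the first 1 kb, against 88% of members. A high share by gene is thus not limited to these families. The 7 members with peaks but none near the first edge were DIP-alpha, DIP-iota, DIP-kappa, DIP-lambda, beat-IIb, dpr15 and side-IV. The peak of side-IV, at 1686 bp in both its lists, lay just beyond.

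**Figure D3:**
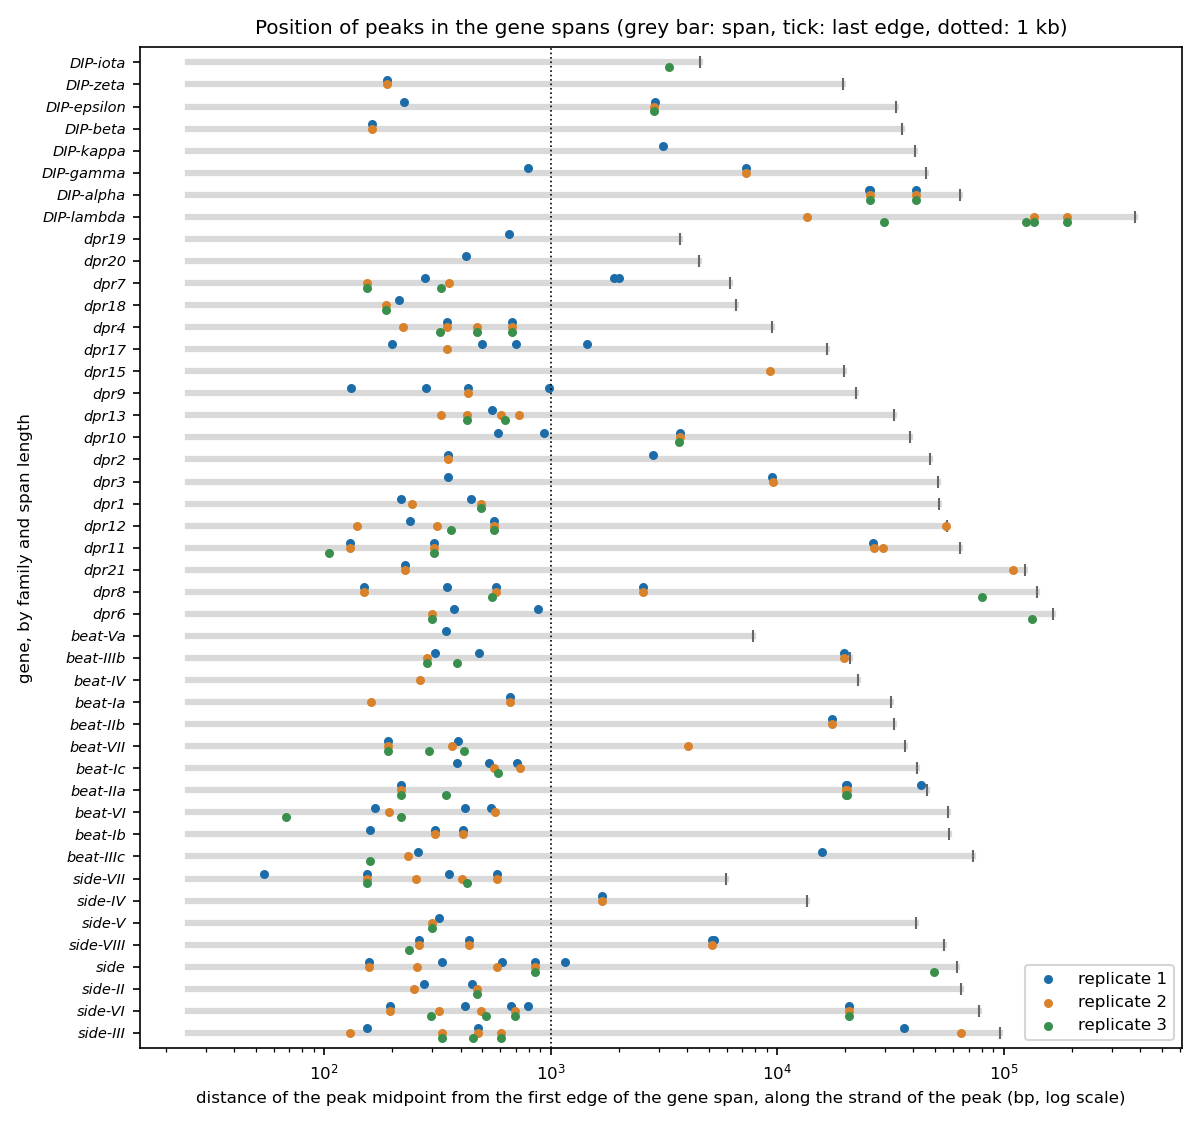
Distance of every peak from the first edge of its gene span, in bp on a log scale, for the 45 members with a peak; colours mark the 3 lists, grey bars the spans and the dotted line 1 kb. Peaks of dpr, beat and side genes gather left of the line in genes from 3.74 kb (dpr19) to 165 kb (dpr6), while those of DIP-alpha and DIP-lambda lie far to the right.

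Most members' peaks of a shorter list coincided with a peak of a longer list. Of the 87 members' peaks in list 2, 71 shared 1 bp or more of the same strand with a peak of list 1, or 81.6% (Wilson 95% interval 72.2% to 88.4%, counting error only). Of the 53 peaks in list 3, 44 overlapped list 1 and 44 overlapped list 2, or 83.0% each (70.8% to 90.8%). For all peaks in 1 coding span the shorter list overlapped the longer by 82.1%, 82.2% and 70.0% in the same order. Read from the longer list, the same pairs gave 64.6%, 37.5% and 49.4% in members and 33.3%, 28.5% and 59.4% in all coding peaks. The order of members and all coding peaks thus changed with the pair and with the direction of reading.

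Regions covered by a peak in all 3 lists on the same strand numbered 43 and lay in 25 members, 14 of them with 1 region and 11 with more. By the same rule 12.1% of all assessable genes held such a region. Of the 43 regions, 35 (81.4%) lay within 1 kb of the first edge and 0 within 1 kb of the last edge. Of the 3606 regions in other genes, 41.7% lay at the first edge and 25.2% at the last. In genes of 20 kb or more the values at the first edge were 77.1% of 35 members' regions and 36.3% of 1266 other regions. Counted by gene, 22 of the 25 members (88.0%) held a region at the first edge, against 68.3% of 1437 other genes. Among genes of 20 kb or more, 18 of 21 members (85.7%) and 58.8% of 502 other genes did so. At this length the values by gene lay closer together than those by region. Each member was then described at the region with the best mean rank of CLIP reads over the lists. In 22 members this region lay 159 to 857 bp from the first edge, and the exceptions were DIP-alpha, DIP-epsilon and dpr10.

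Read levels at these regions are given as CLIP reads per bin and input reads per bin in lists 1, 2 and 3, each averaged over the whole peak that covers the region. The ratio compares CLIP with input on the log2 scale after 1 read was added to each, and is given as its mean ± SD over the 3 lists (n = 3). Where a peak has several bins, the input is a geometric mean, which pulls the ratio upward.

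DIP-alpha had 2 kinds of region, neither near an edge. At chrX:3545751-3545950 CLIP reached 861, 1254 and 479 reads, the highest of any member, and input 829, 1218 and 1214. This region lies in the long non-coding RNA gene lncRNA:CR34335, which sits within the DIP-alpha span on the table used here. Its ratio was −0.41 ± 0.80, below the median of coding peaks in each of the lists, and reads of the gene and of the non-coding RNA cannot be told apart there. Outside that gene, at chrX:3530501-3530550 and 41124 bp from the first edge, CLIP reads were 144, 84.5 and 16.5 against 6, 6.32 and 4.69 input reads. The ratio there was 3.18 ± 1.41, and its input stayed under 7 reads in each list. In ratio over the lists, the members nearest to the best-ranked region of DIP-alpha were side-V, dpr18 and side-VI, with mean absolute differences of 1.57, 1.99 and 2.29, which are wide.

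DIP-epsilon had its region at chr2L:6408451-6408500, 2851 bp from the first edge, with 12.5, 25 and 10 CLIP reads against 2.45, 3 and 3 input reads. Its ratio was 2.04 ± 0.62, and its level in list 2 equals the lowest of that list. List 1 held a second peak of its own, 226 bp from the first edge, with 7.5 CLIP and 4.58 input reads. A further 7 peaks in its span, all in list 1, also lie in CG42369 and were not counted. Of the DIP genes in 2 lists, DIP-beta had 11 and 25 CLIP reads at chrX:21457551-21457600, and DIP-zeta had 12 and 26 at chr2L:9070951-9071000. Both lay under 200 bp from the first edge, 163 and 189 bp. DIP-gamma had 51 and 31 CLIP reads against 440 and 39 input reads at chr3R:28932301-28932350, so input was the higher there.

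The dpr genes include the highest ratio. dpr11, the partner of DIP-gamma in colour-vision neurons, had 32.7, 84.7 and 18.7 CLIP reads at chr3R:6592951-6593100, 305 bp from the first edge, with 4.93, 1.59 and 1.71 input reads. Its ratio of 3.47 ± 1.38 headed the members' best-ranked regions. It was the highest of the 25 in lists 2 and 3, and 9 other members were higher in list 1. A second shared region of dpr11 lay at 105 bp.

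Both partners of DIP-alpha had a shared region. For dpr6 (chr3L:9974851-9975050, 300 bp) CLIP reads were 15.4, 43 and 8.5 against 2.83, 2.63 and 1.57 input reads, a ratio of 2.53 ± 0.93. The region of dpr10 (chr3L:10182401-10182450) lay 3683 bp from the first edge, with 13, 35.5 and 8 CLIP and 2.45, 3.46 and 4 input reads, and ratios of 2.02, 3.03 and 0.85. In dpr10 the peaks within the first 1 kb appeared in list 1 only.

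dpr12, the partner of DIP-delta, had 25.8, 71.6 and 15.7 CLIP reads against 4.34, 6.09 and 4.31 input reads at chr2R:5805201-5805350, 564 bp from the first edge. The ratio was 2.44 ± 0.86, and a second region at 364 bp had 1.38 ± 1.34. In each list the region nearer to 1 kb had the higher ratio. The salt-taste gene dpr1 had 15.2, 48.3 and 8 CLIP reads against 1.78, 4.82 and 1 input reads at chr2R:20698951-20699000, 493 bp in, with a ratio of 2.60 ± 0.46.

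The remaining dpr genes are DIP ligands with less specific background here. Among them dpr4 (chr3R:11542251-11542300, 674 bp) had 21.3, 61 and 9 CLIP and 3.30, 3 and 2 input reads, a ratio of 2.69 ± 1.14. On chromosome 4, dpr7 (chr4:252901-253050, 354 bp) had 26, 86.7 and 15.5 CLIP and 3.72, 6.04 and 4.09 input reads, a ratio of 2.62 ± 0.98. Both genes span under 10 kb and still held 3 and 2 shared regions, all within the first 1 kb. For dpr13 (chr2R:18007251-18007300, 627 bp) the values were 13.6, 35.5 and 14 CLIP and 1.86, 2.83 and 3 input reads, a ratio of 2.50 ± 0.69. In dpr8 (chrX:14322751-14322800, 550 bp) they were 15.5, 47.5 and 9 CLIP and 2.11, 2.51 and 7 input reads, a ratio of 2.17 ± 1.74. The ratio of dpr8 varied most between lists among the best-ranked regions, with 2.41 and 3.79 in lists 1 and 2 and 0.32 in list 3. The lowest ratio among the best-ranked dpr regions was that of dpr18 (chrX:16063901-16063950, 188 bp), 1.58 ± 1.31, with 12, 32 and 8 CLIP and 8.06, 3 and 3 input reads.

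The 6 recurrent beat genes all had their best-ranked region between 159 and 585 bp from the first edge. beat-IIIb (chr2L:16973351-16973400, 285 bp) had 22.5, 57.7 and 15 CLIP reads against 2, 3.63 and 2 input reads, a ratio of 3.02 ± 0.62. beat-VI, the receptor of side-II, had 16.8, 57.5 and 14 CLIP reads against 1.97, 2.24 and 3 input reads at chr3R:28418401-28418450, 218 bp in, a ratio of 2.89 ± 1.17. In beat-VII (chr3R:26681751-26681800, 191 bp) CLIP reads were 17, 51 and 14 and input reads 2, 2 and 4, a ratio of 2.76 ± 1.27. All 3 peaks over the beat-VII region have identical ends, and 2 more shared regions followed at 291 and 416 bp.

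beat-Ic, a relative of beat-Ia, had 26.7, 61 and 10 CLIP reads against 2.62, 3 and 4 input reads at chr2L:16000851-16000900, 585 bp from the first edge, with a ratio of 2.68 ± 1.43. beat-IIa, a receptor of side-IV, had 25, 51 and 14 CLIP reads against 3.35, 3.98 and 6 input reads at chr3R:17365851-17365950, 219 bp in, a ratio of 2.35 ± 1.16. It also had shared regions at 20044 and 20444 bp, with ratios of 2.29 ± 0.37 and 1.73 ± 0.86, so here the peaks fell into 2 groups along the gene. Its relative beat-IIb had only the inner kind, a peak at 17474 bp in lists 1 and 2. beat-IIIc (chr2L:17260551-17260600, 159 bp) had 24.6, 53.3 and 12 CLIP reads against 3.13, 7.20 and 3 input reads, a ratio of 2.35 ± 0.57. Of the genes in 2 lists, beat-Ia had 10 and 26 CLIP reads at 661 bp, and beat-Ib had 24 and 59 at 310 bp.

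The side genes, ligands of the beat receptors, gave the most peaks per gene. side, the muscle-expressed attractant for motor axons, held 5, 4 and 2 peaks. Its shared region (chr3R:27436601-27436650, 857 bp) had 22, 44 and 8 CLIP reads against 3, 6 and 4 input reads, a ratio of 2.02 ± 1.02. side-II, the ligand of beat-VI, had 11.5, 49 and 9 CLIP reads against 2.83, 2 and 1 input reads at chr2L:14971801-14971850, 475 bp in, and ratios of 1.71, 4.06 and 2.32. Both members of this binding pair therefore had a region shared by all 3 lists in their first 500 bp. side-VI, the ligand of the beat-V proteins, held 4 shared regions, at 295, 520, 695 and 20845 bp. The one at chr3R:10973051-10973100 (695 bp) had 17, 85 and 10 CLIP reads against 4.47, 6 and 8 input reads, a ratio of 1.88 ± 1.67.

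The other side genes belong to the same ligand family. side-III (chr3R:5958901-5959000, 605 bp) had 18.7, 67.5 and 11.5 CLIP and 4.46, 7.42 and 3 input reads, a ratio of 2.17 ± 0.74. side-VII (chr3R:9739501-9739600, 429 bp) had 14.2, 55.3 and 10 CLIP and 3.78, 5.94 and 2.45 input reads, a ratio of 2.12 ± 0.78. In side-VII a second region at 154 bp had higher input, 12, 14 and 7 reads, and a ratio of only 0.43 ± 0.51. side-VIII (chr2R:20424551-20424600, 238 bp) had 24, 33 and 8 CLIP and 4.47, 5.48 and 3 input reads, a ratio of 1.92 ± 0.66. side-V (chr2R:23203651-23203700, 298 bp) had 20.5, 68 and 14 CLIP and 5.48, 30 and 9 input reads, a ratio of 1.16 ± 0.57, the lowest of the best-ranked regions outside DIP-alpha. Its ratio in list 2 lay below the median of coding peaks. side-IV, in 2 lists, had 11 and 27 CLIP reads against 2 and 3 input reads at chr3R:13452251-13452300.

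**Figure D4:**
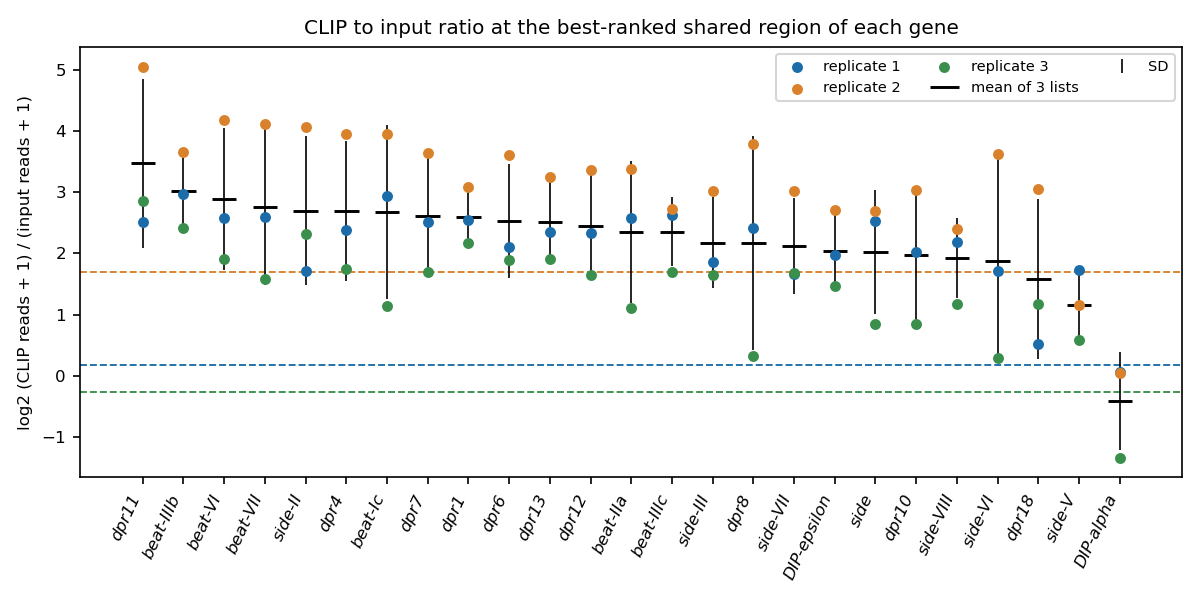
log2 ratio of CLIP to input reads at the best-ranked shared region of each of 25 members, ordered by the mean; points are the 3 lists, black dashes means, vertical lines SD, and dashed lines the median of all coding peaks in the list of that colour (0.18, 1.69 and −0.26). In 23 members the point of every list lies above its line, side-V lies above in 2 lists and DIP-alpha, shown at its region in lncRNA:CR34335, in 0.

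Across these regions, list 2 gave the highest of the 3 ratios in 23 of 25 members and list 3 the lowest in 21. The same order held for all coding peaks, whose medians were 0.18, 1.69 and −0.26. The spread over lists is thus largely common to the genes, so neighbours in the order of mean ratios were compared within each list, a step chosen after seeing the data. In 1 of 24 neighbouring pairs, side-V and DIP-alpha, was the first gene higher in every list and the mean difference, 1.57 ± 0.42 (SD, n = 3 lists), larger than its SD. The 24 means other than that of DIP-alpha ran from 1.16 to 3.47. DIP-alpha is represented here by its region in lncRNA:CR34335. Its shared region outside that gene had a ratio of 3.18 ± 1.41 (SD, n = 3 lists), above the coding median in all 3 lists.

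Over all peaks of their own, the members' median ratio was 1.86, 3.00 and 1.32, higher than the coding median by 1.53 ± 0.19 (SD, n = 3 lists). Of the peaks, 91 of 96, 73 of 87 and 48 of 53 lay above the coding median of their list. CLIP medians were close, 12.2, 38 and 10 reads in members and 10, 38 and 10 in all coding peaks. Input was lower in members, 3, 4 and 3 reads per bin against 8, 11 and 12. Input was also low in other long genes: those of 20 kb or more that are not members had a mean ratio median of 1.49 ± 0.98 (SD, n = 3 lists), and 2.12 ± 0.86 for their peaks in the first 1 kb. The members, of any length, had 2.17 ± 0.78 in the first 1 kb, near the value of the other long genes there. Elsewhere in the span the median was 1.70 ± 0.93 in members and 1.11 ± 0.98 in the other long genes (SD, n = 3 lists), and it was higher in members in each list. At shared regions in genes of 20 kb or more, at any position, the median was 2.29 in members and 2.12 in other genes.

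The peaks of a member lay mostly on 1 strand, 93 of 96, 83 of 87 and 51 of 53 of them, or 96.9%, 95.4% and 96.2%. The 9 others lay in DIP-gamma, DIP-lambda, beat-IIIb, beat-IIa, beat-VII, side and side-III. The main strand was taken as that of most of these same peaks, so a high share is partly built in. A gene with 1 peak always counts as on its main strand, and the share in other genes is not given here. The choice is weak for DIP-gamma, with 2 peaks against 1, where both of the 2 had input above CLIP. In DIP-lambda all 5 peaks on the main strand had input above CLIP, and the 2 opposite ones had CLIP above input. In beat-IIIb the opposite-strand peak at chr2L:16974251-16974300 recurred in lists 1 and 2, with 8 and 28 CLIP reads against 5 and 3 input reads. The opposite-strand peaks of beat-IIa and beat-VII had 66 and 252 input reads against 11 and 86 CLIP reads. Many coding peaks of each list also had input above CLIP, so this alone does not show which strand is that of the gene.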

How the data were processed

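CLIP and input libraries from fly heads (n = 3 each) were analysed from 3 peak lists without headers; per the submitters' processing notes, STAR 2.7.5a and the builds dm6 and BDGP6 were used, and the peak caller is not given in the sources used here. From the values, the deposited signal is the mean of unscaled CLIP reads per 50 bp bin. The deposited natural log column is that of input reads, averaged over bins, and an offset of 1 inside the log could not be settled. The p-value deposited by the authors served only to pick the lowest 50% of peaks as an alternative. Depth of the libraries was not used here.

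Gene spans came from the RefSeq table of the Release 6 assembly, without strand or exons, so no sequence is shown. Regions are intersections of peaks of all 3 lists on 1 strand. Long means 20 kb or more. Peaks were handled with Python 3.11.15, pandas 2.3.3 and numpy 2.4.6, checked on planted peaks. All results are descriptions without a test, since the members, gene lists, binding pairs and the 1 kb and 20 kb limits were chosen with earlier results of these data known. Every member is named; values are given at the shared region with the best mean rank. The labels call the libraries biological replicates of pooled heads. Alternatives covered p-value, overlap, strand, pseudocount and left-out lists.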

Additional observations from a re-analysis of the deposited data

How the results depend on the processing

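Of 58 alternatives, 46 stayed within 1.5 times a count or within the spread of a value, 12 moved and 0 reversed. With the 50% of peaks of lowest p-value, members with a peak in all lists fell from 25 to 11, their peaks per list from 78.7 to 46.3, shared regions from 43 to 10, and the overlap of lists from 82.5% to 72.4%. Overlap was 56.0% at a reciprocal overlap of 50% and 86.2% with peaks extended by 50 bp. Left-out lists gave 81.6% to 83.0% overlap and 44 to 72 shared regions, the latter without replicate 3. Members with a peak in every remaining list numbered 26, 25 and 37 without replicates 1, 2 and 3. The 37 was counted as staying, being just within 1.5 times 25. Limits chosen after seeing the data put the share of peaks near the first edge at 54.0% for 500 bp and 73.7% for 2 kb, against 23.7% and 45.9% in other genes; it was 79.4% without the DIP family and 73.2% outside lncRNA genes. Members of at least 10 and 50 kb had a peak in all lists in 48.8% and 76.5%, against 47.7% and 73.6% of all such genes. For pairing, 4 intervals with identical ends in all lists had a ratio of 2.38 with the replicate block, each CLIP list against its own input, and 2.35 with input averaged over lists. Peaks with few reads, near the minimum of 7 or 25 per bin, limit what the absence of a peak shows.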
